A study of Solanum lycopersicum with 12 samples.

Results

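The comparison described here is the step from 2 hr to 6 hr of salt treatment in roots of LA2711, the tomato genotype that the labels call salt tolerant. It rests on 4 of the 12 arrays of the series: the 2 dye-swap arrays of LA2711 at 2 hr and the 2 at 6 hr, chosen by their titles. On each 2-colour array, total RNA from roots of salt-treated seedlings was hybridised together with RNA of control seedlings, once with the treated RNA in Cy5 and once in Cy3. The other arrays hold LA2711 at 30 min and the salt-sensitive genotype ZS-5 at 30 min, 2 hr and 6 hr. The salt dose, the age of the seedlings and the number of plants in an RNA sample are not given in the labels, and nothing there says that the plants of different times were grown apart or that each time had its own control. The array carries clones from subtracted libraries, which are enriched beforehand for transcripts that differ between samples, so shares of clones are not shares of root genes.

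Roots in saline soil face a falling water supply within minutes and a slow entry of sodium and chloride over hours. Plant cells are known to answer with hormone signals of the jasmonate and ethylene pathways, with transcription factors of the NAC and ERF families, and with water channels, potassium channels and compatible solutes that restore turgor. Reserves such as starch are drawn on, and enzymes that remove peroxide limit oxidative damage. A comparison of 2 hr with 6 hr asks which of these transcripts had already settled and which were still moving.

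Every value below is a log2 ratio of the treated and control RNA of an array, or a difference between such ratios. The ratios of all arrays have the same direction. Their numerator was not named in the labels, so a positive and a negative ratio are opposite responses to salt, and neither can be called induction. Values are centred on the median of each array over the 3018 clones measured on all 12 arrays, unless they are called uncentred. Each clone is 3 adjacent spots, averaged. The 2 arrays of a condition share their RNA and count as 1 replicate, so a difference within LA2711 has no test. It is given as the mean of the differences of 2 array pairs matched by treated dye, with their SD (n = 2 pairs), which measures technical spread only. A clone is called past 2-fold where both matched differences are at least 1 on the same side. Groups of a clone are said to overlap where its 2 hr and 6 hr values do so with both dyes pooled. Its matched differences can then still agree in sign. A limma test exists only for the mean of LA2711 and ZS-5 (6 conditions, genotype as covariate, 2 residual degrees of freedom, Benjamini-Hochberg adjusted), and such values are named as values of both genotypes. In bulk roots, fewer cells of a type and less RNA per cell cannot be told apart, and ratios give no level with which the labelled tissue could be checked.

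The arrays reach further from 0 at 6 hr than at 2 hr. The SD over clones of the LA2711 log2 ratio was 1.55 at 2 hr and 2.42 at 6 hr, 1.57 times as large. The array medians also moved, from -0.15 (treated RNA in Cy5) and -0.56 (Cy3) at 2 hr to -0.69 and -1.26 at 6 hr, so that centring adds 0.62 to every difference between the times. For this reason each difference was also taken without centring, with all arrays scaled to the same spread (median absolute deviation), and after quantile normalisation. Scaling to the same spread removes any growth of the whole response, and a clone far from 0 at 2 hr then has to move further than the other clones to keep its side. A name such as NAC1 comes from a platform annotation that names 79 clones of 38 genes, and 77 of these clones, of 36 genes, were measured on all arrays. The clones of WRKYIId-1 and LOC778219 were each measured on 11 arrays and are left out.

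Of the 3018 clones, 1152 lay past 2-fold between 2 hr and 6 hr in LA2711 (38.2%), 568 toward the positive side (18.8%) and 584 toward the negative side (19.4%). Without centring there were 290 positive clones (9.61%) and 1053 negative ones (34.9%), so the positive share of these clones was 49.3% with centring and 21.6% without. Uncentred, that made 44.5% of all clones in total. Scaling to the same spread left 718 clones (23.8%), 464 positive (15.4%) and 254 negative (8.42%), or 64.6% positive. Quantile normalisation left 477 (15.8%), with 225 positive (7.46%) and 252 negative (8.35%). The matched differences of the 2 dye orientations had a Pearson r of 0.97 across clones, which are not independent replicates, and the same sign for 2872 clones. Past 2-fold on the same side under all 4 scalings were 234 clones (7.75%), 94 positive (3.11%) and 140 negative (4.64%). 

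**Figure D1:**
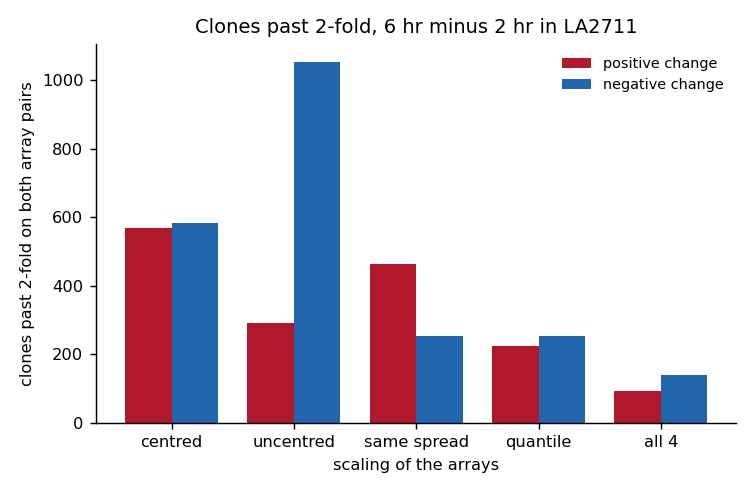
Bars count the LA2711 clones past 2-fold on both dye-matched array pairs between 2 hr and 6 hr, by side and by scaling of the arrays. The 2 sides are nearly equal with centring (568 and 584), mostly negative without it (290 and 1053), and 94 and 140 clones hold under all 4 scalings.

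Among named clones, 14 lay past 2-fold toward the positive side and 21 toward the negative side, out of 77. Of all clones, 18.8% and 19.4% did. NAC1 alone gave 8 of the 21 negative clones. Without centring 8 named clones were positive and 33 negative, against 9.61% and 34.9% of all clones. The median centred difference of the named clones was -0.17, against 0.27 for all clones. The named clones that passed under all 4 scalings were 4 on the positive side and 6 on the negative side. Of all clones, 3.11% and 4.64% did. The 4 are clones of TIP, GAD2 and LOC778302, and the 6 of DES, ADH2, GluB, MTSHP, VAHOX1 and NAC1. Genes are described below by what their products do.

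**Figure D2:**
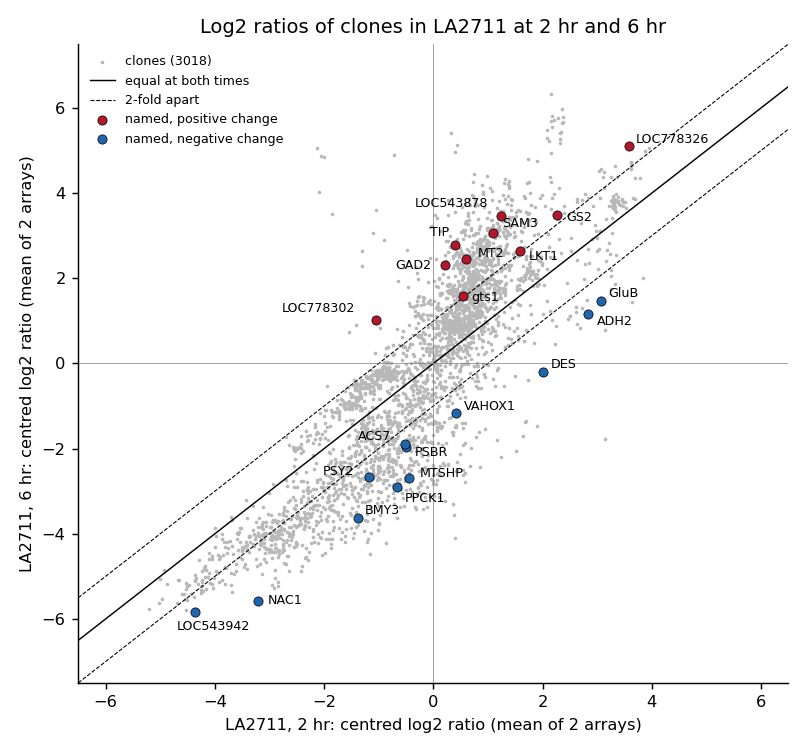
Each grey point is 1 of 3018 clones, placed by its mean centred log2 ratio in LA2711 at 2 hr (horizontal) and 6 hr (vertical), and dashed lines mark a 2-fold difference. NAC1 and LOC543942 were far on the negative side at 2 hr and farther at 6 hr, while DES, ADH2 and GluB were on the positive side at 2 hr and nearer to 0 at 6 hr. When all arrays are scaled to the same spread, the difference turns its sign for the labelled clones of NAC1, LOC543942, LOC778326, GS2 and LKT1.

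TIP encodes an aquaporin of the tonoplast, the membrane around the vacuole, which lets water pass between vacuole and cytosol. In LA2711 it lay at 0.62 (treated RNA in Cy5) and 0.18 (Cy3) at 2 hr and at 3.02 and 2.55 at 6 hr. Both 6 hr arrays are thus well above both 2 hr arrays, and the ratio had been near 0 at 2 hr. The difference of 2.39 ± 0.03 (SD, n = 2 pairs) was the largest positive one among named clones, and it was 1.77 uncentred and 1.24 with arrays of the same spread. In both genotypes together TIP differed by 1.88 ± 0.40 (SE, limma adjusted p = 0.00904), a call that was lost without centring (adjusted p = 0.14). LKT1, a potassium channel gene, lay at 1.62 and 1.55 at 2 hr and at 2.68 and 2.61 at 6 hr. Its difference of 1.05 was 0.43 uncentred and turned negative with arrays of the same spread (-0.30) and after quantile normalisation (-0.32). Both clones of this list of 2 genes lay past 2-fold toward the positive side, against 18.8% of all clones, and 1 of them did without centring.

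Of the 6 clones of nitrogen and amino acid genes, 3 lay past 2-fold toward the positive side and 0 toward the negative side, against 18.8% and 19.4% of all clones. Without centring 1 was positive and 2 were negative, against 9.61% and 34.9%. GAD2 encodes glutamate decarboxylase, which makes the stress metabolite GABA from glutamate. It lay at 0.40 and 0.03 at 2 hr, and at 2.61 and 2.00 at 6 hr. The ratio left 0 between these times on both dye orientations. The difference was 2.09 ± 0.17 (SD, n = 2 pairs), 1.47 uncentred, and 2.48 ± 0.69 in both genotypes (SE, limma adjusted p = 0.0236, and 0.083 without centring). GS2, a glutamine synthetase gene of ammonium assimilation, was already positive at 2 hr. Its clone of spots 4084 to 4086 lay at 2.27 and 2.25 then and at 3.42 and 3.53 at 6 hr, and its other clone at 2.58 and 2.19 and then 3.98 and 3.09. The clones differed by 1.22 and 1.15, or 0.59 and 0.53 uncentred, and by -0.61 and -0.72 with arrays of the same spread, so their side depends on the scaling. gts1, listed with ammonium assimilation, lay at 0.26 and 0.80 and then at 1.32 and 1.85, a difference of 1.05 that was 0.43 uncentred. With negative ratios at both times, AADC1B, an aromatic amino acid decarboxylase, lay at -3.24 and -3.32 and then at -4.33 and -4.26, and AAP2, an amino acid permease, at -1.75 and -1.68 and then at -2.33 and -2.39. Neither was past 2-fold with centring (-1.02 and -0.65), both were without it (-1.64 and -1.27), and both differences were positive with arrays of the same spread (1.34 and 0.62). The median difference of the list was 1.10, against 0.27 for all clones. In both genotypes limma called 1 of these 6 clones (GAD2), against 43.3% of all clones.

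SAM3 encodes an S-adenosylmethionine synthetase, which makes the methyl donor of lignin synthesis and the precursor of ethylene. Of its 5 clones, 3 lay past 2-fold toward the positive side (18.8% of all clones did), and 2 did without centring (9.61%). Scaled to the same spread, 0 did. The clone of spots 8152 to 8154 lay at 0.91 and 1.29 at 2 hr and at 2.87 and 3.26 at 6 hr. Its difference was 1.97, and 2.00 ± 0.31 in both genotypes (SE, limma adjusted p = 0.00294). The clones of spots 4396 to 4398 and 3181 to 3183 differed by 1.92 ± 0.36 and 1.54 ± 0.30 (SD, n = 2 pairs). That of spots 286 to 288 differed by 0.77, and that of spots 5650 to 5652, near 0 at both times, by 0.07. With arrays of the same spread the 3 large differences shrank to between 0.22 and 0.55.

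LOC543878, listed in the RefSeq gene table with the synonym PR5 for a thaumatin-like pathogenesis-related protein, has 3 clones. That of spots 9973 to 9975 lay at 1.17 and 1.32 at 2 hr and at 3.34 and 3.59 at 6 hr, a difference of 2.22 ± 0.07 (SD, n = 2 pairs), and of 2.23 ± 0.29 in both genotypes (SE, limma adjusted p = 0.00217). It shrank to 0.63 with arrays of the same spread. The other 2 clones, of spots 7648 to 7650 and 6400 to 6402, were positive at both times and differed by 0.28 and -0.39. They differed by -0.34 and -1.02 uncentred, and with arrays of the same spread by -1.61 and -1.31, then past 2-fold on the negative side. GluB encodes a beta-1,3-glucanase, an enzyme that cuts callose and fungal wall glucans. Its clone of spots 4516 to 4518 lay at 3.04 and 3.08 at 2 hr and at 1.44 and 1.51 at 6 hr, and its other clone at 3.35 and 3.17 and then at 2.14 and 2.23. All 6 hr values are below all 2 hr values in both clones, while both stayed positive. The differences were -1.59 ± 0.03 and -1.07 ± 0.19 (SD, n = 2 pairs), or -2.21 and -1.69 uncentred. In both genotypes the first differed by -1.44 ± 0.28 (SE, limma adjusted p = 0.00655) and the second was just outside the call (adjusted p = 0.0537). NP24-I, an osmotin-like protein gene, lay at -1.15 and -1.81 at 2 hr and at -1.39 and -2.42 at 6 hr. Its groups overlap, and its difference was -0.43 (-1.05 uncentred, and 0.63 with arrays of the same spread). Over the list of 6 defence clones, 1 lay past 2-fold on each side, close to the 18.8% and 19.4% of all clones. Scaled to the same spread, 0 were positive and 4 negative.

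All 3 listed genes of carbon metabolism lay past 2-fold toward the negative side with centring, each with 1 clone, against 19.4% of all clones. Scaled to the same spread, only ADH2 did, while PPCK1 differed by -0.99 and BMY3 by -0.55. ADH2 encodes alcohol dehydrogenase, the last step of ethanol fermentation. It lay at 2.90 and 2.75 at 2 hr and at 0.83 and 1.49 at 6 hr. The response was thus strong and positive at 2 hr and much nearer to 0 at 6 hr, with an uncentred mean that went from 2.47 to 0.18. The difference was -1.66 ± 0.57 (SD, n = 2 pairs), -2.29 uncentred and -2.72 with arrays of the same spread. ADH2 was not called in both genotypes (-0.20 ± 0.75, SE, limma adjusted p = 0.85, and 0.43 without centring), since ZS-5 moved the opposite way. PPCK1 encodes the kinase that activates phosphoenolpyruvate carboxylase. It lay at -0.52 and -0.80 and then at -3.16 and -2.65, a difference of -2.25 ± 0.56, and in both genotypes of -2.29 ± 0.39 (SE, limma adjusted p = 0.00399). BMY3, a beta-amylase gene of starch breakdown, lay at -1.42 and -1.35 and then at -3.84 and -3.42. It differed by -2.24 ± 0.25 (SD, n = 2 pairs), and by -1.78 ± 0.33 in both genotypes (SE, limma adjusted p = 0.00536). PPCK1 and BMY3 moved away from 0, whereas ADH2 moved back toward it.

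**Figure D3:**
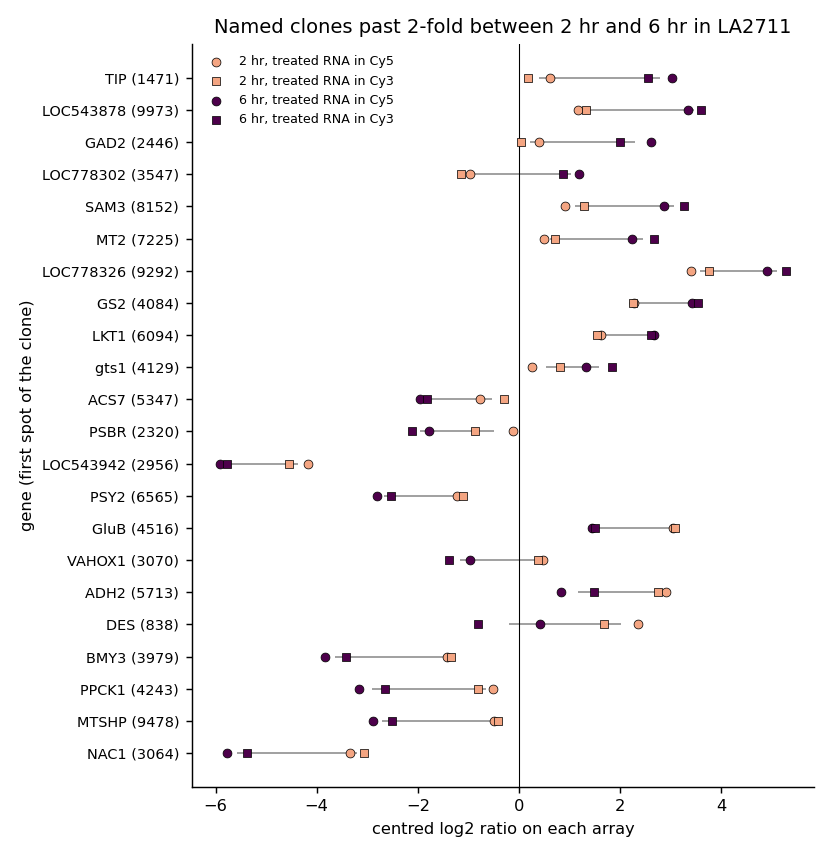
Each row is 1 named clone past 2-fold between the times, 1 clone per gene and side, with its centred log2 ratio on each of the 4 LA2711 arrays (circles: treated RNA in Cy5, squares: Cy3) and a grey line joining the means of 2 hr and 6 hr. The rows were chosen by a difference of at least 1 on both array pairs, so separate 2 hr and 6 hr points largely follow from that choice. The sign of the difference turns with arrays of the same spread in the rows of LOC778326, GS2, LKT1, LOC543942 and NAC1.

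Oxylipins are signals made from oxidised fatty acids. AOS, allene oxide synthase, leads to jasmonate, and DES, divinyl ether synthase, to divinyl ethers. The DES clone lay at 2.34 and 1.68 at 2 hr and at 0.41 and -0.81 at 6 hr. The positive response of 2 hr was gone at 6 hr, with a difference of -2.21 ± 0.39 (SD, n = 2 pairs), -2.83 uncentred, -2.58 with arrays of the same spread, and -2.30 ± 0.48 in both genotypes (SE, limma adjusted p = 0.00811). The AOS clones behaved otherwise. Of 7 clones, 5 were already between -2.59 and -4.57 at 2 hr and lay between -3.59 and -5.42 at 6 hr. Their differences ran from -1.15 to -0.56, and none of the 7 AOS clones was past 2-fold, while 5 were without centring. These 5 differences were positive with arrays of the same spread, from 0.94 to 2.22. The positive AOS clone of spots 1540 to 1542 lay at 3.42 and 3.11 and then at 3.68 and 3.13, with overlapping groups, and that of spots 10144 to 10146 stayed between -0.40 and -0.68. Limma called 0 of the 7 AOS clones in both genotypes with centring and 5 without it, against 43.3% and 46.9% of all clones.

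Ethylene genes were represented by ACS7, which encodes an aminocyclopropane carboxylate synthase of ethylene synthesis, and by the response factor genes ERF3 and JERF1. ACS7 lay at -0.77 and -0.29 at 2 hr and at -1.96 and -1.81 at 6 hr. It differed by -1.36 ± 0.23 (SD, n = 2 pairs), and by -1.61 ± 0.29 in both genotypes (SE, limma adjusted p = 0.00499). It was within 2-fold with arrays of the same spread (-0.53) and after quantile normalisation (-0.61). ERF3 lay at -1.75 and -1.61 and then at -3.10 and -2.51, a difference of -1.12 with one matched pair short of 2-fold. It was -1.745 and past 2-fold uncentred, and 0.31 with arrays of the same spread. The 2 JERF1 clones were weakly positive and their groups overlap, with differences of -0.34 and -0.17 (-0.96 and -0.79 uncentred). The matched pairs gave -0.46 and -0.21 for the first clone, and -0.38 and 0.04 for the second. Of these 4 clones, 1 lay past 2-fold, on the negative side, against 19.4% of all clones, and 0 did with arrays of the same spread. Uncentred, 2 did, against 34.9% of all clones. In both genotypes limma called 1 of the 4 negative with centring and 4 without it, against 19.2% and 37.4% of all clones. With centring the median difference was -0.73 against 0.27 for all clones.

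NAC1 encodes a transcription factor of the NAC family. It has 9 clones, of which 8 lay past 2-fold toward the negative side, with and without centring, against 19.4% and 34.9% of all clones, and 1 did with arrays of the same spread. The clone of spots 3064 to 3066 lay at -3.34 and -3.07 at 2 hr and at -5.77 and -5.38 at 6 hr. That is a difference of -2.37 ± 0.08 (SD, n = 2 pairs), and of -1.91 ± 0.34 in both genotypes (SE, limma adjusted p = 0.00429). Its mean had been 1.25 at 30 min, so it crossed 0 before 2 hr and kept going. Another 6 clones followed the same course, with differences from -2.28 to -1.66. These 7 differences turned small and positive with arrays of the same spread, from 0.22 to 0.63. The clone of spots 4192 to 4194 was different: it lay at 1.02 and 1.55 at 2 hr and at -0.52 and -0.54 at 6 hr, and its difference of -1.81 was -1.90 with arrays of the same spread. The ninth, of spots 3769 to 3771, lay at 0.74 and 0.22 and then at 1.18 and 0.66. Its groups overlap with the dyes pooled, but its matched differences were alike, 0.44 and 0.45. Clones of one gene are not replicates, and a clone could also detect related members of the family, which was not tested. VAHOX1, a homeobox-leucine zipper gene, lay at 0.47 and 0.37 and then at -0.97 and -1.38, a difference of -1.59 ± 0.22 (SD, n = 2 pairs), and of -1.34 ± 0.31 in both genotypes (SE, limma adjusted p = 0.0118).

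**Figure D4:**
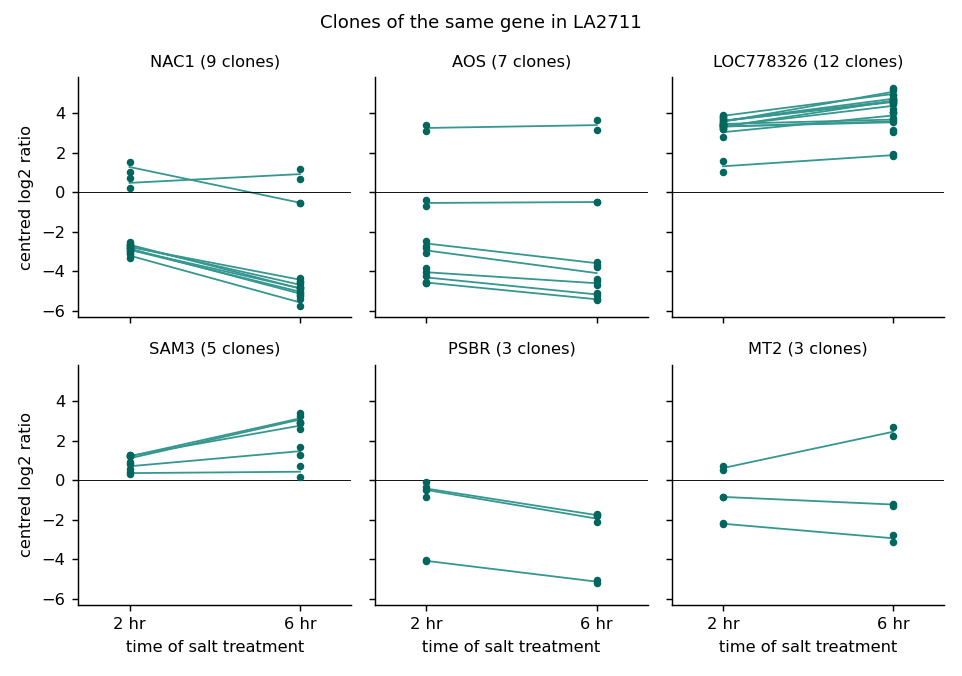
Each line is 1 clone of the named gene, from its centred log2 ratio in LA2711 at 2 hr to that at 6 hr, with points for the 2 arrays of each time. In NAC1, 7 clones run in parallel on the negative side and 2 do not, and in AOS 1 clone stays near 3 while 5 lie under -2. With arrays of the same spread the sign of the difference turns in all 12 LOC778326 clones, in 8 clones of NAC1 and 6 of AOS (all but those of spots 4192 to 4194 and 10144 to 10146), in the 2 negative MT2 clones, the lowest PSBR clone and the lowest SAM3 clone.

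The 2 heat shock genes, whose products keep other proteins folded, did not move together. MTSHP, a small heat shock protein of mitochondria, lay at -0.49 and -0.41 at 2 hr and at -2.88 and -2.52 at 6 hr. It left the neighbourhood of 0 between the times, with a difference of -2.25 ± 0.20 (SD, n = 2 pairs), -1.12 with arrays of the same spread, and -2.32 ± 0.33 in both genotypes (SE, limma adjusted p = 0.00244). Hsp90-1 lay at -2.01 and -1.31 and then at -1.42 and -0.52, with overlapping groups but matched differences of 0.59 and 0.79. Its difference was 0.69, and 0.07 uncentred.

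Metallothioneins are small metal-binding proteins that also take up reactive oxygen. MT2 had 3 clones with unlike moves. That of spots 7225 to 7227 lay at 0.50 and 0.71 and then at 2.23 and 2.67, a difference of 1.84 ± 0.16 (SD, n = 2 pairs). It was 1.22 uncentred and 0.77 with arrays of the same spread. In both genotypes it was not called (1.27 ± 0.67, SE, limma adjusted p = 0.154). The other MT2 clones lay on the negative side and differed by -0.74 and -0.39, or by 0.87 and 0.27 with arrays of the same spread. Uncentred they differed by -1.36 and -1.01, and the first, of spots 8869 to 8871, was then past 2-fold. Its limma adjusted p in both genotypes was 0.102, and 0.0115 without centring. MT4 differed by 0.64, and by 0.02 uncentred. In both genotypes it differed by 1.50 ± 0.42 (SE, limma adjusted p = 0.0244, and 0.188 without centring). The peroxide-removing enzymes showed little in LA2711, with differences of 0.53 for the catalase gene cat1 and 0.22 for the peroxidase gene TPX2. Both were negative uncentred (-0.09 and -0.40). In ZS-5 they differed by 1.77 and 1.28, or 0.91 and 0.42 uncentred. For cat1 the value of both genotypes was 1.15 ± 0.38 (SE, limma adjusted p = 0.0426, and 0.475 without centring). TPX2 was not called (limma adjusted p = 0.262).

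Genes of plastid function are on the array although the tissue is root. PSBR encodes a subunit of photosystem II, PSY2 a phytoene synthase of carotenoid synthesis, and ribA an enzyme of riboflavin synthesis. Of their 5 clones, 4 lay past 2-fold toward the negative side (19.4% of all clones did), and 5 did without centring (34.9%). With arrays of the same spread 0 were negative and 2 were positive, so the side of the list depends on the scaling. The PSBR clones of spots 2320 to 2322 and 3649 to 3651 lay at -0.12 and -0.88, and at -0.37 and -0.49, at 2 hr. At 6 hr they lay at -1.78 and -2.12, and at -1.72 and -1.83. They moved alike, by -1.45 ± 0.29 and -1.34 ± 0.01 (SD, n = 2 pairs). Neither was called in both genotypes (-0.50 ± 0.45 and -0.41 ± 0.44, SE, limma adjusted p = 0.383 and 0.466). The third PSBR clone, of spots 1453 to 1455, was at -4.07 and -4.12 already at 2 hr and lay at -5.09 and -5.21 at 6 hr, a difference of -1.05 that was 1.81 with arrays of the same spread. PSY2 lay at -1.23 and -1.12 and then at -2.81 and -2.53, a difference of -1.50 ± 0.12, and of -1.14 ± 0.31 in both genotypes (SE, limma adjusted p = 0.0208). Its difference shrank to -0.22 with arrays of the same spread and to -0.43 after quantile normalisation, and the value of both genotypes turned to 0.31 with the same spread. ribA differed by -0.85 (-1.47 uncentred, and 1.44 with arrays of the same spread). The median difference of the list was -1.34, against 0.27 for all clones. In both genotypes limma called 2 of these 5 clones, PSY2 and the third PSBR clone, both negative, against 19.2% of all clones. Whether green tissue took any part was not tested, since PSBR is the only photosystem gene among the names.

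Several named genes carry only a locus number. The 2 clones of LOC778302 lay lower at 2 hr than at 30 min and 6 hr. The clone of spots 3547 to 3549 had a mean of 1.27 at 30 min, lay at -0.96 and -1.15 at 2 hr, and at 1.18 and 0.87 at 6 hr. The difference of 2.08 ± 0.09 (SD, n = 2 pairs) was 1.46 uncentred and 1.92 with arrays of the same spread. It was 2.06 ± 0.33 in both genotypes (SE, limma adjusted p = 0.0031). The clone of spots 4768 to 4770 followed it, with 1.33 at 30 min and a difference of 1.82 ± 0.14. Uncentred, the 6 hr means of these clones were 0.05 and -0.14, so their positive ratio at 6 hr was there with centring only. LOC778326 has 12 clones, all positive at both times. Their centred differences ran from 0.21 to 1.52 and 2 of them lay past 2-fold, but uncentred none did, with a range from -0.41 to 0.90, and with arrays of the same spread all 12 were negative. LOC543942 lay at -4.18 and -4.56 and then at -5.91 and -5.77, a difference of -1.47 that was 1.72 with arrays of the same spread. The 3 clones of LOC544267 differed by -0.46, -0.20 and 0.92, or by -1.08, -0.82 and 0.30 uncentred. With arrays of the same spread they differed by -1.95, -1.70 and 0.72, the first 2 past 2-fold. In ZS-5 their centred differences were -1.32, -1.62 and 1.51, all past 2-fold. TCTP, the translationally controlled tumour protein gene, lay at -0.57 and -0.15 and then at 0.37 and 0.97, a difference of 1.04 that was 0.42 uncentred. LOC543916, with the synonym XTH9 of a wall-remodelling enzyme, differed by 0.38.

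The next question was how the response at 6 hr was built from that at 2 hr. At 2 hr, 425 clones of LA2711 were at least 2-fold on the positive side on both arrays (14.1%) and 815 on the negative side (27.0%). At 6 hr there were 972 (32.2%) and 1061 (35.2%). Both sides together made 41.1% of clones at 2 hr and 67.4% at 6 hr. Uncentred, the positive side held 8.12% and then 16.5%, the negative side 32.9% and then 46.1%, and both together 41.0% and then 62.6%. Scaled to the same spread, the total hardly grew, from 49.5% (18.2% positive, 31.3% negative) to 50.8% (22.7% positive, 28.1% negative). Most clones that had responded by 2 hr stayed on their side: 373 of the 425 positive clones and 684 of the 815 negative ones were past 2-fold on the same side at 6 hr. Within 2-fold at 2 hr and past it at 6 hr were 960 clones, 591 positive and 369 negative. Here and below, a clone counts as within 2-fold at a time where its 2 arrays are not both past it on the same side. A single array can then still lie past it. Of the 77 named clones, 7 were among the positive ones, against 19.6% of all clones, and 6 among the negative ones, against 12.2%. The 7 included TIP, GAD2, gts1 and the MT2 clone of spots 7225 to 7227. The 6 included MTSHP, PPCK1, ACS7, PSBR and another MT2 clone (spots 9751 to 9753).

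The clones that stayed on their side mostly lay farther from 0 at 6 hr. Among the 684 negative ones the median went from -2.30 to -3.54 and 617 had moved outward. Among the 373 positive ones it went from 1.74 to 2.98 and 332 had moved outward. Without centring 674 of the 684 and 212 of the 373 moved outward. With arrays of the same spread the picture turns, and 595 of the 684 and 250 of the 373 lay nearer to 0, so the outward move depends on the scaling. That scaling uses the median absolute deviation over clones, which went from 0.94 (Cy5) and 0.91 (Cy3) at 2 hr to 1.85 and 1.81 at 6 hr and so grew more than the SD did.

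No longer past 2-fold on both arrays at 6 hr were 44 positive clones and 123 negative clones. The positive ones included ADH2, DES and 1 NAC1 clone, and the negative ones included Hsp90-1. On 1 array each, ADH2 still lay at 1.49 and Hsp90-1 at -1.42. Switched from one side to the other were 16 unnamed clones, 8 in each direction. The count was 14 without centring and 12 with arrays of the same spread. The largest moves of all are among them. The unnamed clone of spots 9577 to 9579 lay at -2.10 and -2.15 at 2 hr and at 5.03 and 5.09 at 6 hr, a difference of 7.18 ± 0.08 (SD, n = 2 pairs) and of 6.30 ± 0.46 in both genotypes (SE, limma adjusted p = 0.000635). That of spots 6997 to 6999 went the same way, from -2.16 and -1.95 to 4.84 and 4.89. Past 16-fold on both array pairs were 11 clones toward the positive side and 2 toward the negative side. These 2 are unnamed. The clone of spots 4417 to 4419 lay at 2.94 and 3.35 and then at -2.12 and -1.42. Its difference was -4.91, but -0.37 in ZS-5, and it was not called in both genotypes (-2.64 ± 0.96, SE, limma adjusted p = 0.0576). The clone of spots 4582 to 4584 lay at 0.52 and 0.28 and then at -4.23 and -3.95. It differed by -4.49, by -2.32 in ZS-5, and by -3.41 ± 0.51 in both genotypes (SE, limma adjusted p = 0.0026).

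The limma test of the same step in both genotypes called 1308 of 3018 clones (43.3%), 728 positive (24.1%) and 580 negative (19.2%). Of the 1152 clones past 2-fold in LA2711, 996 were called on the same side, but LA2711 is itself a part of that mean. Uncentred, limma called 1415 clones (46.9%), 286 positive (9.48%) and 1129 negative (37.4%). With arrays of the same spread or after quantile normalisation limma called 0 clones, with 322 and 356 at an unadjusted p under 0.05.

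The last question was where the step in LA2711 differs from that in ZS-5. With 1 difference per genotype this has no test, and the values stand side by side. The Pearson r of the 2 differences was 0.81 over the 3018 clones, which are no independent replicates. On the positive side 474 clones were past 2-fold in both genotypes, 83.5% of the LA2711 list and 67.0% of the ZS-5 list. On the negative side 281 were, 48.1% of the LA2711 list and 76.2% of the ZS-5 list. Without centring these shares were 58.6% and 80.6% on the positive side and 76.8% and 69.0% on the negative side. In ZS-5, 1076 clones were past 2-fold (35.7%), 707 positive (23.4%) and 369 negative (12.2%), and uncentred 45.9% were, 6.99% positive and 38.9% negative.

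Past 2-fold in opposite directions were 8 clones, all negative in LA2711 and positive in ZS-5, and 3 of them without centring. The 1 named clone among the 8 is ADH2. Its ratio went back from a mean of 2.82 to 1.16 in LA2711, while in ZS-5 it went on from 4.19 to 5.45. The differences were -1.66 ± 0.57 in LA2711 and 1.26 ± 0.15 in ZS-5 (SD, n = 2 pairs each), or -2.29 and 0.40 uncentred. The PSBR clones of spots 2320 to 2322 and 3649 to 3651 differed by -1.45 and -1.34 in LA2711 and by 0.45 and 0.52 in ZS-5, or by -2.07 and -1.97 against -0.41 and -0.34 uncentred. The third PSBR clone was negative in both, with -0.73 in ZS-5. The 7 low NAC1 clones differed by -2.37 to -1.66 in LA2711 and by -1.44 to -0.66 in ZS-5. The NAC1 clone of spots 4192 to 4194 differed by -1.81 in LA2711 and -2.04 in ZS-5, and that of spots 3769 to 3771 by 0.44 and 1.26. MT2 (spots 7225 to 7227) differed by 1.84 in LA2711 and 0.69 in ZS-5, or 1.22 and -0.17 uncentred. MT4 differed by 0.64 and 2.37, or 0.02 and 1.51 uncentred. Others were near each other, such as MTSHP with -2.25 and -2.39, LOC778302 (spots 3547 to 3549) with 2.08 and 2.04, and SAM3 (spots 8152 to 8154) with 1.97 and 2.03.

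The 123 clones that were past 2-fold negative at 2 hr and back within it at 6 hr in LA2711 had medians of -1.40 and -0.70 at these times, values that chose them. The ZS-5 arrays had no part in choosing them. There the medians were -0.49 and -1.32, and 118 of the 123 had negative differences on both array pairs, against 44.1% of all clones. A negative mean difference in ZS-5 was also common in the other groups on the negative side of LA2711. It was found in 584 of the 684 clones negative at both times, and in 343 of the 369 negative at 6 hr only. Uncentred, the LA2711 median of the 123 clones hardly moved (-1.75 and -1.67), while that of ZS-5 went from -0.48 to -2.17. Scaled to the same spread, 67 of the 123 were negative in ZS-5, against 32.0% of all clones. Hsp90-1 is the 1 named clone in this group, and whether the other 122 come from few genes was not tested, since they are unnamed here.

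**Figure D5:**
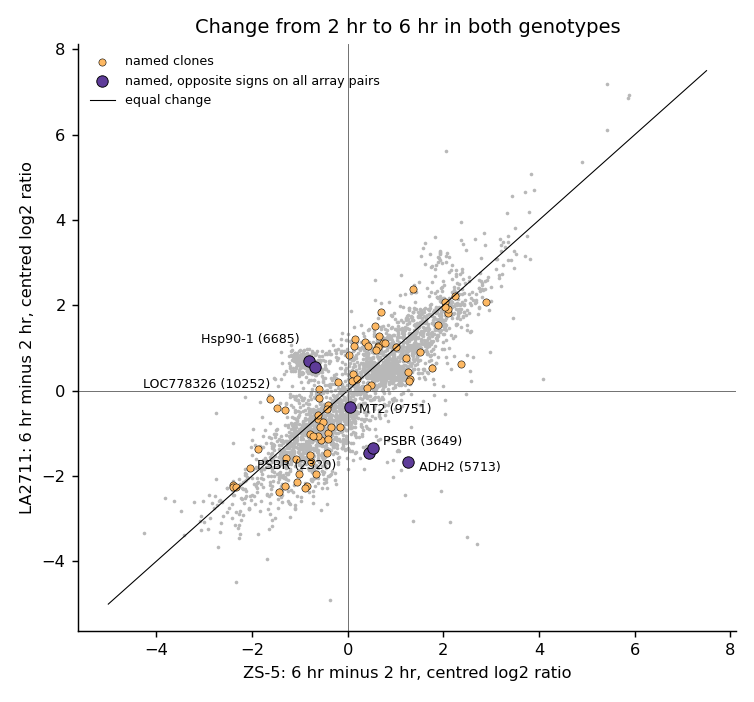
Each grey point is 1 of 3018 clones, placed by its centred 6 hr minus 2 hr difference in ZS-5 (horizontal) and in LA2711 (vertical), each a mean of 2 array pairs. ADH2 and 2 PSBR clones lie below 0 in LA2711 and above 0 in ZS-5, and a dense group with Hsp90-1 and 1 LOC778326 clone lies above 0 in LA2711 and below 0 in ZS-5. Uncentred, ADH2 is the only one of the 6 labelled clones with a negative difference in LA2711 and a positive one in ZS-5.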

How the data were processed

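The authors deposited log2 ratios, 1 for each spot on each array. Their scanner, background correction and normalization were not stated in the labels, and no intensities were used, so the number of arrays limits the precision. Both arrays of a condition, which swap the dyes per the labels, were averaged to 1 replicate. Spots with an absolute log2 of 9.965 or more, at the ratio limits, were left out. Runs of 3 adjacent spots were averaged to 3456 clones, and the 3018 measured on all 12 arrays were kept. The decimals of the ratio and of its inverse differed by treated dye in the same way on all 12 arrays, from which all signs were taken to run alike. Python 3.11.15 and, for the 2-sided tests, limma 3.58.1 (lmFit, eBayes; R 4.3.3) were used, tested on simulated data. Members, gene lists and tests were chosen with earlier results of these data known, and the count over all 4 scalings was added after seeing the values. Named are up to 12 genes per side by size among the named clones past 2-fold on both array pairs, 1 clone per gene, with all genes of the lists, the other named genes, and up to 2 unnamed clones per side. Names follow GEO's platform annotation, and the RefSeq table of assembly SLM_r2.1 held 37 of the 38 gene IDs. Alternatives were centring, scaling, quantile normalization, spot handling, the fold, and leaving out arrays.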

Additional observations from a re-analysis of the deposited data

Results flagged for a closer look

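In 6 named clones both array pairs of LA2711 moved one way between 2 hr and 6 hr and both pairs of ZS-5 moved the opposite way. The difference between the genotypes was not tested in any of them. For all clones, 395 of 3018 (13.1%) had opposite signs in this way, and for named clones 6 of 77. LA2711 minus ZS-5 was -2.93 for ADH2, and -1.90 and -1.87 for the PSBR clones of spots 2320 to 2322 and 3649 to 3651. It was 1.50 for Hsp90-1, with 0.69 in LA2711 and -0.81 in ZS-5. For the LOC778326 clone of spots 10252 to 10254 it was 1.25, with 0.56 and -0.69, and for the MT2 clone of spots 9751 to 9753 it was -0.43, with -0.39 and 0.05. Without centring the signs stayed opposite in ADH2 (-2.29 and 0.40) and Hsp90-1 (0.07 and -1.67), and were negative in both genotypes for the other 4 clones.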

How the results depend on the processing

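Clones past 2-fold in LA2711 (1152) numbered 718 with arrays of the same spread, 477 after quantile normalisation and 292 at 4-fold. Positive ones were 290 without centring, 225 after quantile normalisation and 156 at 4-fold, and negative ones 1053, 252 and 136, or 254 with the same spread. Leaving out 1 dye orientation gave 1298 to 1401. Limma calls in both genotypes were 0 in total and on either side with the same spread and after quantile normalisation, and 286 positive and 1129 negative without centring. Leaving out both arrays of a condition gave 669 calls (452 and 217) without LA2711 6 hr, 649 (352 and 297) without ZS-5 6 hr and 307 negative calls without LA2711 2 hr. Leaving out single arrays gave 1155 to 1381. With the 12 arrays as separate samples and a replicate block there were 2188 calls (1215 and 973), a fit that counts each dye-swap pair as 2 samples. Repeat 1 has the treated RNA in Cy5 in each condition except ZS-5 at 30 min, so the block is not a pairing by dye on all 12 arrays, and the labels name no other shared factor. Clones past 2-fold on the same side in both genotypes were 370 with the same spread and 177 after quantile normalisation, and on opposite sides 4 and 3 (3 without centring). Clones past 2-fold only at 6 hr numbered 445 and 442 under these scalings, and clones past it only at 2 hr 406 and 395 (105 without centring). Among the 35 named clones past 2-fold, the LA2711 difference reversed with the same spread in NAC1 (0.44, 0.63, 0.45, 0.22, 0.30, 0.43 and 0.53), PSBR (1.81), LOC543942 (1.72), LOC778326 (-1.20 and -1.21), GS2 (-0.61) and LKT1 (-0.30), and after quantile normalisation in GS2 (-0.21), LKT1 (-0.32) and LOC778326 (-0.21). Among the named clones called by limma, the value of both genotypes reversed with the same spread in NAC1 (0.94, 1.08, 0.86, 0.95, 0.98, 0.96 and 1.15), PSBR (1.87), LOC778326 (-1.30, -1.61 and -1.53), LKT1 (-0.48) and PSY2 (0.31), and after quantile normalisation in LOC778326 (-0.33, -0.49 and -0.48) and LKT1 (-0.54). Named clones outside these sets, such as those of AOS, also changed sign, as given above. Beyond the scalings' own construction the cause was not tested. Of the 35 named clones past 2-fold, 29 stayed so without centring, 13 after quantile normalisation and 10 with the same spread. Without intensities, signal over background is unknown.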
